A study of Mus musculus with 12 samples.

Results

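Adipogenic transcription factors are the DNA-binding proteins that turn a fibroblast-like precursor into a fat cell. The 10 genes described here are Cebpb, Cebpd, Pparg, Cebpa, Nr1h3, Ebf1, Ebf2, Klf5, Stat5a and Stat5b. They are genes with a known part in fat-cell formation, found in the expression matrix through their Ensembl identifiers in the GRCm38 annotation, and were picked with earlier results of these data known. They are 10 of its 28948 genes. All 10 were among the 11245 genes that had at least 1 RPKM in at least 3 libraries and were tested. RPKM is a read count scaled to exon length and to the size of the library, so that levels of different genes can be compared.

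The RNA came from 3T3-L1 adipocytes, fat cells made in culture from a precursor line of Swiss mouse origin, in 4 groups of 3 libraries. One group carried an empty vector and one an expression construct for Foxp1, a forkhead transcription factor best known as a repressor. A further pair of groups carried a scrambled hairpin RNA or a hairpin RNA that lowers Foxp1. Per the labels, all groups were differentiated alike, in a mixture of troglitazone (10 µM), dexamethasone (1 µM), insulin (5 µg/ml) and the phosphodiesterase inhibitor isobutylmethylxanthine (0.5 mM). Insulin alone was continued from day 4 and plain growth medium from day 6. Troglitazone is a ligand of PPARγ, the protein made from Pparg, so every group including the controls had received an agonist of one of the 10 factors. The labels place the manipulation in adipocytes but do not give its day or that of RNA extraction, or say whether replicates are separate cultures. The p-values therefore measure the spread between these libraries, which may be technical.

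In the textbook order of events, the hormone mixture first induces C/EBPβ (Cebpb) and C/EBPδ (Cebpd) in the precursor, with Klf5 and the STAT5 proteins acting at about the same stage. These induce PPARγ and C/EBPα (Cebpa), which then keep each other expressed and switch on the genes of lipid storage. LXRα (Nr1h3) is a receptor for oxidised sterols that PPARγ itself induces, and the EBF proteins bind next to PPARγ at many fat-cell genes.

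Pparg occupies chr6:115360951-115490399 on the plus strand of GRCm38, and the transcript that starts at 115422066, with its start codon at 115422111 in exon 1, encodes the longer, fat-cell form PPARγ2. RefSeq promoter windows on GRCm38.p6, each 250 bases before to 50 bases after a start, were matched for 7 of the 10 factors, as 13 promoters. Cebpd, Klf5 and Ebf2 were not searched. The 13 promoters were searched on both strands for a C/EBP motif (TTGCNNAA), a forkhead motif (TGTTTAC) and a STAT motif (TTCNNNGAA). The PPARγ2 start was the only one of the 13 with a C/EBP match, and it held 2 of them. They are shown because C/EBP proteins are known to act on this promoter and because the C/EBP genes are among those that changed. Capitals mark the 8 matched bases, and both are written 5′ to 3′ on the plus strand.
Pparg, chr6:115421840-115421869, match at -215 to -208 from the start: tgtaccaagtcTTGCCAAAgcagcagacag
Pparg, chr6:115422039-115422068, match at -16 to -9 from the start, on the minus strand: accaaccaatcTTTTGCAAgacatagacaa
Among all 32851 RefSeq promoters of this length, 10.8% held the C/EBP motif, 3.65% the forkhead motif and 8.3% the STAT motif. No forkhead or STAT match lay in the 13 windows, which says only that these letters are not there. A match is a string of letters and not a binding site, and the expression matrix gives 1 value per gene, so the transcripts of Pparg cannot be told apart in what follows.

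Foxp1 itself followed its labels. It measured 1.83, 1.76 and 1.82 RPKM with the empty vector against 5.78, 7.16 and 6.75 with the construct, 3.64 times as much, and 2.24, 2.2 and 2.11 RPKM with the scrambled hairpin against 1.11, 1.14 and 1.08 with the Foxp1 hairpin, a ratio of 0.508. Depth was even, at 35196318 to 38389454 gene-assigned reads, of which each of the 10 factors had 88 to 14730 per library. Overexpression replicate 3 differed from the others of its group, with 13.11% mitochondrial reads against 9.99% and 9.65%. Of the markers of fat cells, 6 of 7 were expressed in every group, and Lep, which encodes leptin, was too low to test. Markers of macrophages, endothelium, muscle and bone summed to at most 5.97, 0.583, 2.03 and 2.62 RPKM in any library, and none of their genes in the matrix was at 0 in all 12 libraries.

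Both manipulations moved most of the 10 factors. With Foxp1 overexpression, 3 factors rose (Cebpb, Cebpd and Klf5), 5 fell (Pparg, Cebpa, Nr1h3, Ebf1 and Ebf2), and Stat5a and Stat5b did not pass the test. Across all genes tested 51.4% passed, 31.0% as higher and 20.3% as lower. With Foxp1 knockdown, 2 factors rose (Nr1h3 and Klf5), 6 fell (Pparg, Cebpa, Cebpb, Cebpd, Stat5a and Stat5b), and Ebf1 and Ebf2 did not pass. The background of that comparison was 49.7%, with 18.7% higher and 31.0% lower. The threshold throughout is a Benjamini-Hochberg adjusted p under 0.05 from limma, fitted to log2(RPKM + 1) over all 11245 genes, and "log2 change" means the difference in group mean on that scale. The median size of the log2 change, whatever its sign, was 0.46 for the 10 factors and 0.15 for all genes in overexpression, and 0.35 and 0.15 in knockdown. The split of all genes into higher and lower depends on scaling. It became 21.6% higher and 22.8% lower in overexpression after rescaling to TPM (the same values rescaled to a fixed total), and 24.7% and 24.8% in knockdown after median-ratio scaling. In overexpression the groups did not overlap for 8 of the 10 factors and for 57.5% of all genes, and in knockdown for 10 of the 10 and for 59.6%. Fewer cells of a type and less RNA per cell cannot be told apart in such bulk samples.

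**Figure D1:**
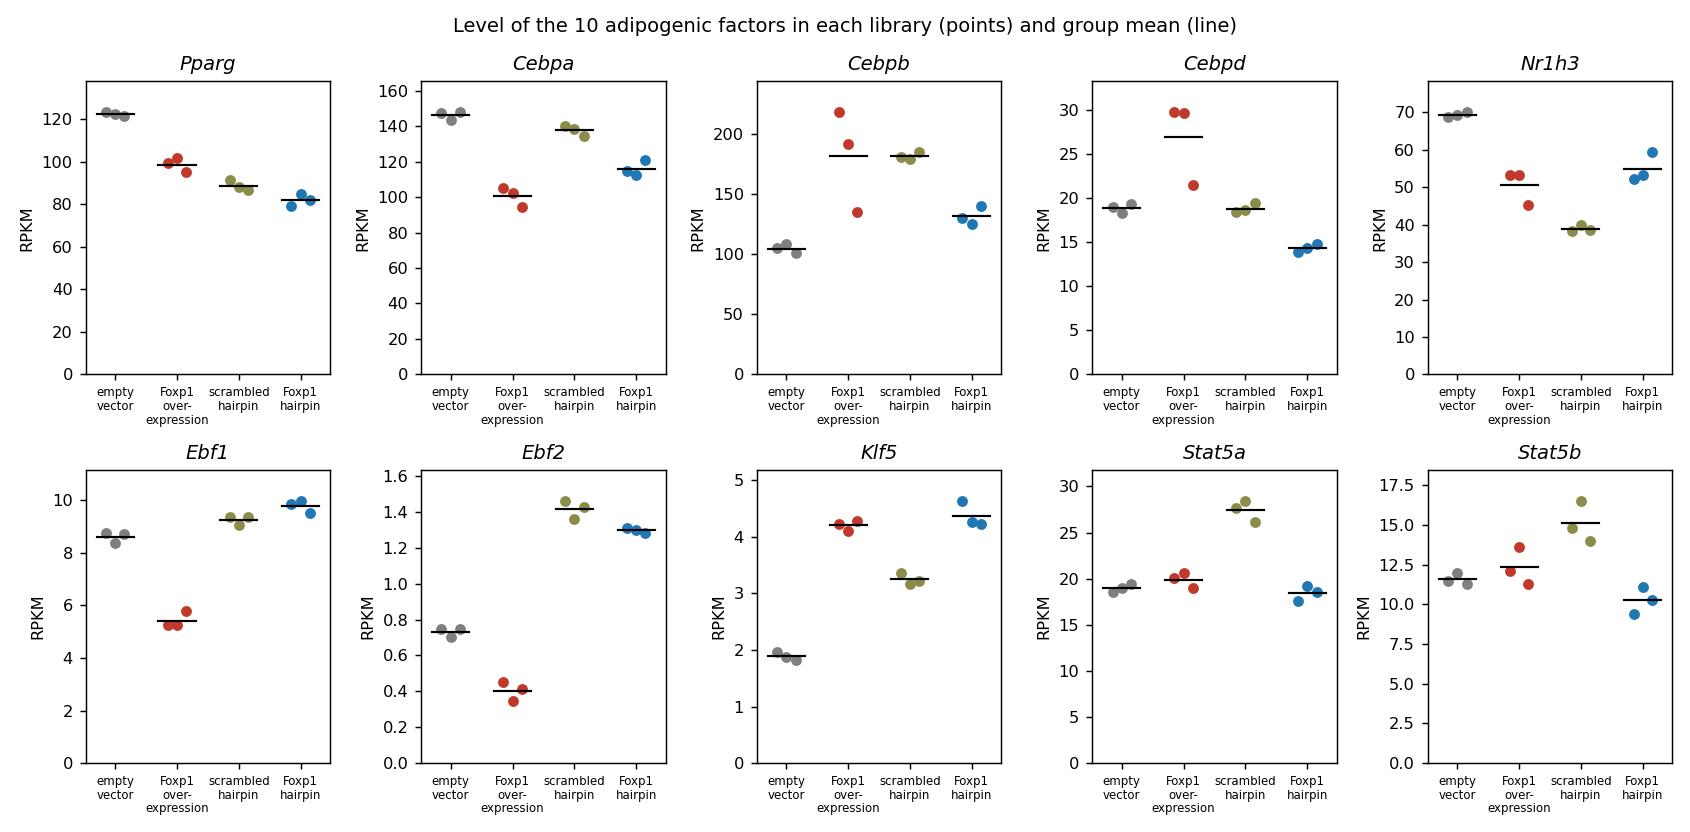
RPKM (vertical axis, from 0, a separate scale for each gene) of the 10 factors in each library (points) and each group mean (line), for the empty vector, Foxp1 overexpression, scrambled hairpin and Foxp1 hairpin groups of 3 libraries. Pparg is highest with the empty vector at 122.5 and lowest with the Foxp1 hairpin at 82.1, while Klf5 is lowest with the empty vector at 1.89.

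The early C/EBP genes moved in opposite directions under more and under less Foxp1. C/EBPβ is the factor that responds first to the hormone mixture. Cebpb (chr2:167688915-167690418, plus strand) measured 104.8, 108.0 and 100.9 RPKM with the empty vector and 217.6, 191.6 and 134.8 with overexpression. Every overexpression library was above every control, but replicate 3 lay closer to the controls than to the other libraries of its group. The log2 change was 0.76 ± 0.126 (SE, limma adjusted p = 0.000298) and the ratio of means 1.73; without overexpression replicate 3 the change was 0.96 and the ratio 1.96 (adjusted p = 7.22e-08). With the scrambled hairpin Cebpb measured 180.5, 178.8 and 184.6 RPKM, and with the Foxp1 hairpin 130.3, 124.7 and 140.1. These groups did not overlap, and the log2 change was -0.46 ± 0.126 (SE, adjusted p = 0.00954), a ratio of 0.726.

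Cebpd encodes C/EBPδ, which accompanies C/EBPβ early in differentiation. Cebpd (chr16:15887286-15891031, plus strand) showed the same signs at a lower level, with 19.0, 18.3 and 19.3 RPKM in the empty vector group and 29.7, 29.6 and 21.5 in overexpression. Replicate 3 was again the lowest of its group and again above all controls. The log2 change of Cebpd was 0.48 ± 0.0926 (SE, limma adjusted p = 0.000986), a ratio of 1.43, and without that library the ratio was 1.57. In the hairpin groups it measured 18.4, 18.6 and 19.4 RPKM against 13.9, 14.3 and 14.8, with no overlap. That is a log2 change of -0.37 ± 0.0926 (SE, adjusted p = 0.006) and a ratio of 0.764. The response to overexpression minus that to knockdown was 1.22 for Cebpb (adjusted p = 0.000103) and 0.84 for Cebpd (adjusted p = 0.000168). Of the exon bases of Cebpb, 20.7% overlap Tmem189 on the opposite strand (at most 33.1 RPKM in any library), and 15% of those of Cebpd overlap Spidr (at most 9.27 RPKM). The strand setting of the counting is not given in the sources used here, so reads in those stretches may belong to either gene.

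Pparg and Cebpa, the pair at the centre of the circuit, were both lower under overexpression and both lower under knockdown. PPARγ is the receptor on which fat-cell formation depends. Pparg measured 123.3, 122.8 and 121.5 RPKM with the empty vector and 99.4, 101.9 and 95.1 with overexpression. The groups were well apart, and Pparg was 0.806 times its control (log2 change -0.31 ± 0.0383 SE, limma adjusted p = 2.69e-05). It measured 91.5, 88.1 and 86.6 RPKM with the scrambled hairpin and 79.4, 84.8 and 82.2 with the Foxp1 hairpin. These groups did not overlap but lay close together. The fall to 0.926 times the control (log2 change -0.11 ± 0.0383 SE, adjusted p = 0.0302) was the smallest called change of the 10 factors in these 2 comparisons. It lost the call under median-ratio scaling (-0.06, adjusted p = 0.186) and without any 1 of 4 of the 6 hairpin libraries, scrambled replicates 1 and 2 and Foxp1 hairpin replicates 1 and 3 (adjusted p = 0.0596 to 0.126).

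C/EBPα takes over from the early C/EBP proteins and is needed for insulin-sensitive glucose uptake in fat cells. Cebpa (chr7:35119293-35121928, plus strand) measured 147.3, 143.7 and 147.7 RPKM with the empty vector and 104.9, 102.3 and 94.4 with overexpression. In the hairpin groups it measured 140.3, 138.1 and 134.2 RPKM with the scrambled sequence and 114.9, 112.6 and 120.7 with the Foxp1 hairpin. Neither comparison had overlapping groups. Cebpa fell by 0.54 on the log2 scale in overexpression (SE 0.0437, limma adjusted p = 5.69e-07, ratio 0.687) and by 0.24 in knockdown (SE 0.0437, adjusted p = 0.000646, ratio 0.844). Although the signs were alike, the sizes differed. The fall in overexpression exceeded that in knockdown by 0.29 for Cebpa (95% confidence interval of the difference -0.43 to -0.16, adjusted p = 0.00155) and by 0.20 for Pparg (-0.32 to -0.08, adjusted p = 0.00818).

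Cebpa fell while Cebpb and Cebpd rose under overexpression. Cebpa made up less of the sum of these 3 genes in every overexpression library than in any control. Cebpg, a further C/EBP gene, was left out of the sum. Its mean went from 33.0 to 25.2 RPKM under overexpression and from 30.5 to 29.1 in the hairpin groups. Cebpa made up 54.3%, 53.2% and 55.1% of the 3-gene sum in the empty vector libraries and 29.8%, 31.6% and 37.7% in the overexpression libraries. The means were 54.2% ± 0.961 and 33.0% ± 4.12 (SD, n = 3 each), a difference of -21.2 percentage points. The exact 2-sided permutation p was 0.1, the smallest that 3 libraries against 3 can give. The sum itself was 269.7 ± 1.64 RPKM with the empty vector and 308.8 ± 52.3 (SD, n = 3) with overexpression, so that the spread between overexpression libraries was larger than the difference of the sums. In the hairpin groups all 3 genes fell together. The share of Cebpa was 40.7% ± 0.911 with the scrambled hairpin and 44.3% ± 0.492 with the Foxp1 hairpin (SD, n = 3 each, difference 3.56 points, exact permutation p = 0.1), while the sum went from 337.6 ± 1.88 to 262.1 ± 12.3 RPKM.

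**Figure D2:**
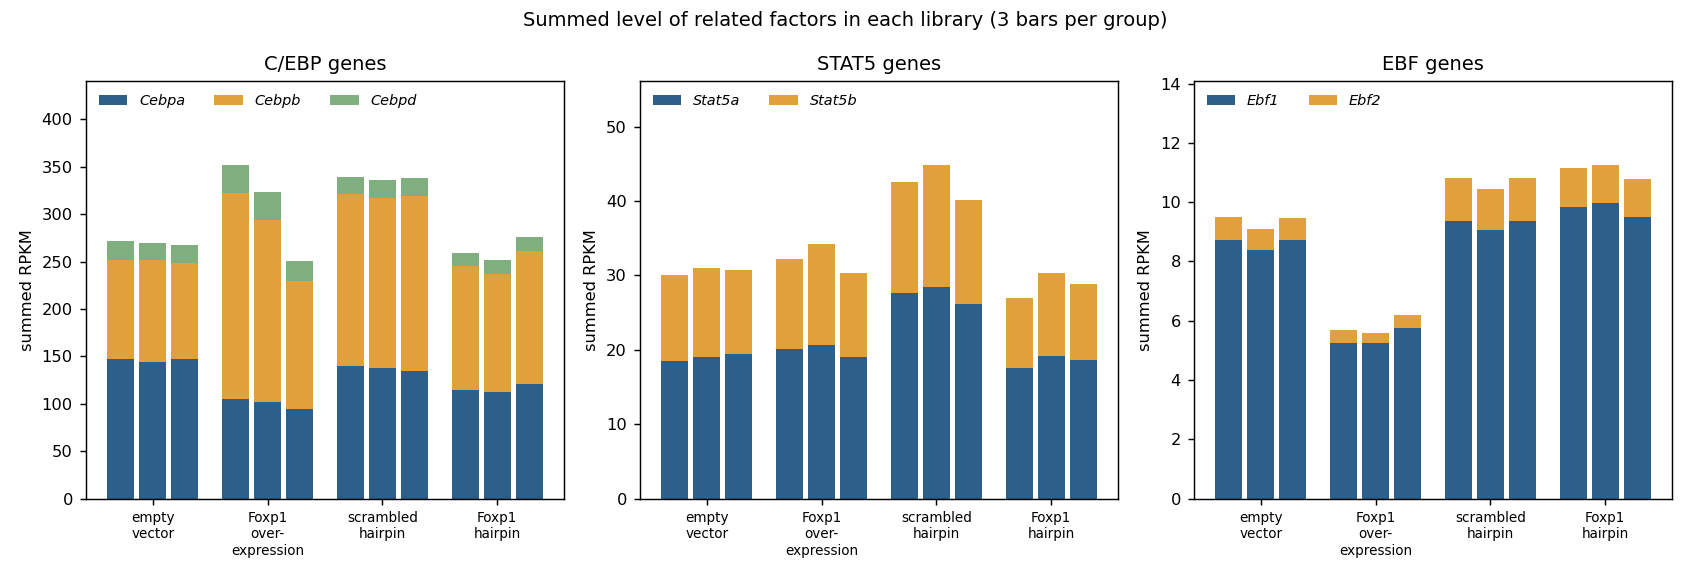
Summed RPKM (vertical axis, from 0) of the C/EBP (Cebpa, Cebpb and Cebpd), STAT5 (Stat5a and Stat5b) and EBF (Ebf1 and Ebf2) genes in each library, stacked by gene, with 3 bars per group. The sums leave out Cebpg and Ebf3. The Cebpa segment is the larger part with the empty vector (54.2% on average) and the smaller part with overexpression (33.0%), whereas Stat5a makes up 61.8% to 64.5% of the STAT5 sum in all groups.

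LXRα is the sterol receptor that drives cholesterol efflux and part of lipid synthesis. Nr1h3 (chr2:91184061-91202834, minus strand) measured 68.8, 69.3 and 70.0 RPKM with the empty vector and 53.2, 53.3 and 45.3 with overexpression. With the scrambled hairpin it measured 38.4, 39.9 and 38.6 RPKM, and with the Foxp1 hairpin 52.2, 53.2 and 59.3. Of the 10 factors, Nr1h3 alone passed the test as lower with more Foxp1 and as higher with less. The log2 change was -0.45 ± 0.0619 (SE, limma adjusted p = 6.29e-05, ratio 0.729) in overexpression and 0.48 ± 0.0619 (SE, adjusted p = 5.52e-05, ratio 1.41) in knockdown. The responses differed by -0.93 (adjusted p = 2.31e-06). The overexpression and Foxp1 hairpin libraries ended at overlapping levels, 45.3 to 53.3 and 52.2 to 59.3 RPKM, from controls that did not overlap.

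Ebf1 and Ebf2 passed the test in overexpression only. EBF1 is the main member of its family in white fat cells, and EBF2 is better known from brown and beige precursors. Ebf1 (chr11:44617317-45008091, plus strand) measured 8.74, 8.38 and 8.72 RPKM with the empty vector and 5.25, 5.24 and 5.77 with overexpression, a ratio of 0.629 (log2 change -0.58 ± 0.0397 SE, limma adjusted p = 1.07e-07). The hairpin libraries held 9.35, 9.07 and 9.38 RPKM with the scrambled sequence and 9.85, 9.97 and 9.51 with the Foxp1 sequence. Those groups did not overlap, yet the log2 change of 0.07 did not pass (95% confidence interval -0.016 to 0.157, adjusted p = 0.164). The responses of Ebf1 to overexpression and knockdown differed by -0.65 (adjusted p = 1.07e-06).

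Ebf2 (chr14:67233292-67430918, plus strand) was the lowest of the 10, with 88 to 385 reads per library, and passed the filter only through the hairpin groups. It measured 0.749, 0.702 and 0.745 RPKM with the empty vector and 0.454, 0.346 and 0.412 with overexpression, a ratio of 0.551 (log2 change -0.30 ± 0.0441 SE, limma adjusted p = 0.000103). In the hairpin groups it was 1.46, 1.36 and 1.43 RPKM against 1.31, 1.3 and 1.28, a log2 change of -0.07 that did not pass (95% confidence interval -0.168 to 0.024, adjusted p = 0.196). The responses of Ebf2 differed by -0.23 (adjusted p = 0.00749). Log2 changes understate ratios at such low levels because 1 RPKM is added to each value. Of the summed level of Ebf1 and Ebf2, Ebf1 made up 92.2% ± 0.0919 in the empty vector group and 93.1% ± 0.913 in the overexpression group (exact permutation p = 0.4). In the hairpin groups the share was 86.7% ± 0.21 against 88.3% ± 0.175 (exact permutation p = 0.1, SD, n = 3 each). Ebf3 was left out of this sum, so the share does not describe the whole EBF family. The mean of Ebf3 went from 2.18 to 5.72 RPKM under overexpression, where Ebf1 was at 5.42. In the hairpin groups it went from 2.85 to 1.79 RPKM. In overexpression the difference in share was 0.897 points, smaller than the spread between the overexpression libraries. It was 1.41 points without overexpression replicate 1 and 0.525 without overexpression replicate 2.

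Klf5 was the one factor that rose under both manipulations. KLF5 is a zinc-finger protein that is induced by the early C/EBP proteins and acts on the Pparg promoter. Klf5 (chr14:99298691-99315036, plus strand) measured 1.97, 1.88 and 1.83 RPKM with the empty vector and 4.22, 4.1 and 4.28 with overexpression. It measured 3.36, 3.16 and 3.22 RPKM with the scrambled hairpin and 4.63, 4.26 and 4.23 with the Foxp1 hairpin. No groups overlapped within either comparison, and overexpression and knockdown ended at overlapping levels. The log2 change was 0.85 ± 0.0412 (SE, limma adjusted p = 4.92e-09, ratio 2.22) in overexpression and 0.34 ± 0.0412 (SE, adjusted p = 3.48e-05, ratio 1.35) in knockdown. The rise in overexpression was the larger by 0.51 (adjusted p = 1.33e-05).

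The STAT5 genes passed the test in knockdown only, and fell there by similar ratios. STAT5A and STAT5B carry signals from growth hormone and related cytokines and are encoded next to each other on chromosome 11. Stat5a (chr11:100859351-100885169, plus strand) measured 27.7, 28.4 and 26.1 RPKM with the scrambled hairpin and 17.6, 19.2 and 18.6 with the Foxp1 hairpin. Stat5b (chr11:100780731-100850724, minus strand) measured 14.8, 16.5 and 14.0 RPKM and 9.36, 11.1 and 10.3. Neither gene's groups overlapped. The log2 change was -0.55 ± 0.0448 (SE, limma adjusted p = 2.11e-06, ratio 0.674) for Stat5a and -0.52 ± 0.0749 (SE, adjusted p = 0.000133, ratio 0.678) for Stat5b.

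With the empty vector Stat5a measured 18.5, 19.0 and 19.4 RPKM and with overexpression 20.1, 20.6 and 19.0, and Stat5b measured 11.5, 12 and 11.3 RPKM against 12.1, 13.6 and 11.3. The groups overlapped for both genes. The log2 change was 0.07 for Stat5a (95% confidence interval -0.029 to 0.166, limma adjusted p = 0.225) and 0.08 for Stat5b (-0.084 to 0.242, adjusted p = 0.399). The responses to overexpression and knockdown differed by 0.61 for Stat5a (adjusted p = 5.43e-06) and 0.60 for Stat5b (adjusted p = 0.000457). The share of Stat5a in the STAT5 sum was 62.0% ± 0.932, 61.8% ± 1.38, 64.5% ± 1.07 and 64.3% ± 1.01 (SD, n = 3 each) in the empty vector, overexpression, scrambled and Foxp1 hairpin groups. The differences of -0.231 and -0.147 points were smaller than the spread between libraries (exact permutation p = 0.8 and 1.0). Of the distinct 50-base stretches of Stat5a transcripts 8.52% occur in another gene, mainly Stat5b, and 11.0% of those of Stat5b, mainly in Stat5a. How reads with several matches were assigned is not given in the sources used here.

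**Figure D3:**
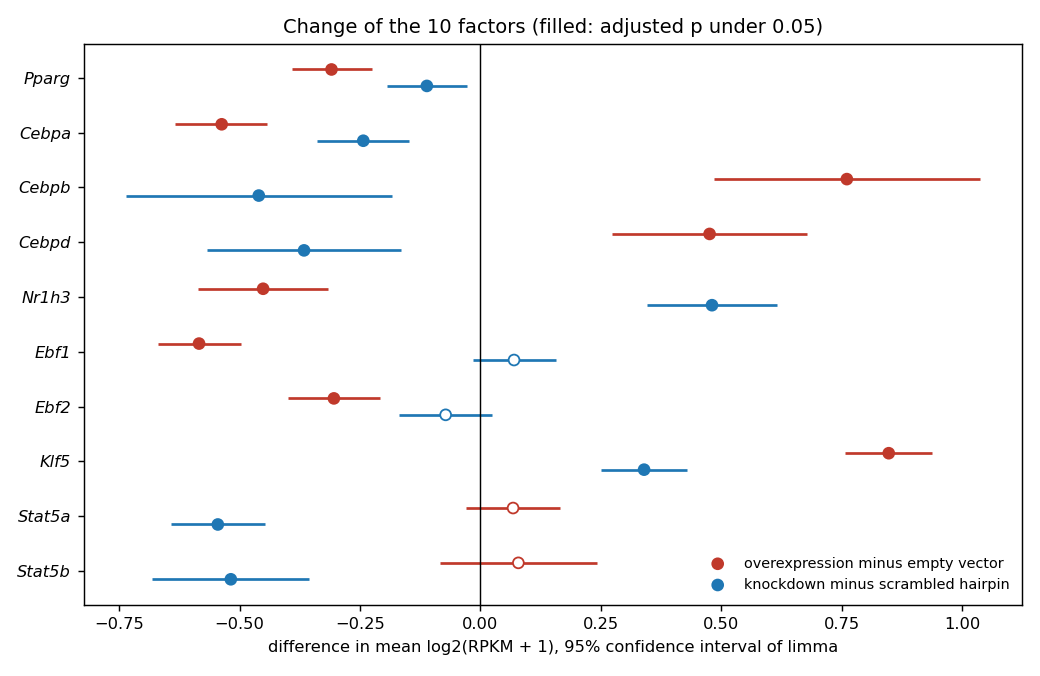
Difference in mean log2(RPKM + 1) (horizontal axis) of each factor for overexpression minus empty vector (red) and Foxp1 hairpin minus scrambled hairpin (blue), with 95% confidence intervals from limma; filled points passed adjusted p 0.05. Cebpb, Cebpd and Nr1h3 lie on opposite sides of 0, Pparg, Cebpa and Klf5 on the same side, and the EBF and STAT5 genes have 1 open point each.

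Set side by side, 3 of the 10 factors were called in both comparisons with opposite signs (Cebpb, Cebpd and Nr1h3), against 18.1% of all genes, and 3 with the same sign (Pparg, Cebpa and Klf5), against 10.5%. These comparisons share no library. Of the 3 with the same sign, Pparg lost its knockdown call under median-ratio scaling and without some single hairpin libraries. The difference of the responses passed for all 10 factors, 5 as higher and 5 as lower, where 54.9% of all genes passed (34.6% higher and 20.3% lower; 26.8% and 27.1% after median-ratio scaling). Without overexpression replicate 3 the counts stayed at 8 in overexpression and 10 for the difference.

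More genes differed between the control groups than between either treated group and its control. Between the scrambled hairpin and the empty vector, 71.8% of all genes passed (44.8% higher and 27.0% lower; 35.0% and 35.5% after median-ratio scaling). Of the 10 factors, 6 were higher and 2 lower with the scrambled hairpin, and the groups did not overlap for 9 of them, against 78.9% of all genes. Nr1h3 was at 0.562 and Pparg at 0.724 times the empty vector level (log2 change -0.82 and -0.46, limma adjusted p = 1.48e-07 and 3.26e-07). Cebpb was at 1.73, Klf5 at 1.72, Stat5a at 1.45 and Stat5b at 1.3 times that level (largest adjusted p = 0.00105). Ebf2, counted among the 6, was at 1.93 times that level. It passed the filter only through the hairpin groups, where it was high, so its call here is not independent of the filter. Ebf1 passed by a small margin (1.08 times, adjusted p = 0.0488) and lost the call under 19 of 25 alternative analyses, with the sign turned under median-ratio scaling (-0.004). Cebpa (0.941 times, adjusted p = 0.0888) and Cebpd (0.995 times, adjusted p = 0.952) did not pass, though Cebpa did under median-ratio scaling (-0.20, adjusted p = 0.000463) and 4 other alternatives. Vector type, hairpin expression and any difference in culture or library preparation cannot be told apart between these controls. The share of mitochondrial reads also differed, at 8.61% to 9.35% with the empty vector and 4.8% to 5.69% with the scrambled hairpin. With scaling to reads outside the mitochondrial genome, Cebpa passed (-0.145, limma adjusted p = 0.00469) and Ebf1 did not (0.043, adjusted p = 0.419). The calls of the other factors stayed as they were. Any part of this share beyond scaling was not tested.

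The order of the 4 groups differed from factor to factor. Pparg descended from the empty vector through overexpression and the scrambled hairpin to the Foxp1 hairpin, with no overlap between neighbours. Cebpa descended from the empty vector through the scrambled and Foxp1 hairpins to overexpression, also without overlap. For Cebpb the overexpression and scrambled libraries overlapped at the top and the empty vector was lowest. For Cebpd overexpression was highest, both controls overlapped in the middle and the Foxp1 hairpin was lowest. The STAT5 genes were highest with the scrambled hairpin, and their overexpression and empty vector libraries overlapped. Among the 11245 genes ranked by mean RPKM over 12 libraries, Cebpb stood at 276, Cebpa at 348, Pparg at 468 and Nr1h3 at 941. Stat5a stood at 2395, Cebpd at 2568, Stat5b at 3794, Ebf1 at 5045, Klf5 at 7817 and Ebf2 at 10770.

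The genes whose profile over the 12 libraries was nearest to that of Pparg were Ccng1, Aldh6a1 and Tkfc, which encode a cyclin, a mitochondrial dehydrogenase of valine breakdown and a triokinase. Likeness was the root mean square difference of log2(RPKM + 1) after centring each gene, over 6652 candidate genes with a mean of at least 5 RPKM. It was 0.039, 0.044 and 0.05, against 0.218 for the spread of Pparg about its own mean. Nearest to Cebpa were Fcgrt, Parp10 and Ifi35, at 0.057, 0.058 and 0.064 against 0.215. They encode the neonatal Fc receptor and a pair of interferon-responsive proteins. These are descriptions over 12 libraries of 4 groups, in which group differences make up most of the profile.

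Pparg fell slightly in knockdown, while most of the listed genes that PPARγ is known to activate rose. The knockdown call of Pparg was lost under median-ratio scaling (-0.058, limma adjusted p = 0.186) and without some single hairpin libraries. Of 21 listed targets, all tested, 14 fell and 5 rose with overexpression (median log2 change -0.37, against 0.04 for all genes), and 15 rose and 3 fell with knockdown (median 0.22, against -0.04). The 5 rises became 3 after rescaling to TPM or quantile normalization. Across all genes tested, 20.3% fell and 31.0% rose in overexpression, and 18.7% rose and 31.0% fell in knockdown. The counts of targets and markers in this paragraph were not tested against these shares. Of the 21 targets, 12 were lower with overexpression and higher with knockdown, 3 were the reverse and 2 were higher in both. Pparg itself was lower in both. Genes called in both comparisons made up 18.1% of all genes with opposite signs and 10.5% with the same sign. Adipoq, which encodes the hormone adiponectin, went from 1948 ± 17.3 to 437.5 ± 16.6 RPKM with overexpression, and Cidec, a lipid droplet protein, from 2430 ± 66.1 to 892.9 ± 12.5 (SD, n = 3 each, log2 change -2.15 and -1.44, limma adjusted p = 6.85e-12 and 1.36e-10). Pck1, the enzyme of glyceride-glycerol synthesis, rose from 1.99 ± 0.115 to 10.1 ± 0.897 RPKM (1.89, adjusted p = 5.15e-11). In knockdown Cidec rose from 2294 ± 42.4 to 3961 ± 166 RPKM and Plin2, another droplet coat protein, from 142.2 ± 3.54 to 237.8 ± 6.18 (0.79 and 0.74, adjusted p = 1.42e-07 and 5.39e-08). Cidea, the droplet protein of brown fat, fell from 5.77 ± 0.487 to 1.3 ± 0.152 RPKM (-1.56, adjusted p = 4.35e-07). In overexpression Cidea rose from 2.99 ± 0.729 to 12.7 ± 0.357 RPKM (1.79, limma adjusted p = 2.47e-08). Markers of the fat-cell state, 4 of which are among these targets, moved with them: 6 of 6 tested fell in overexpression, and 5 rose and 1 fell in knockdown. Their summed level was 7594 to 7724 RPKM with the empty vector, 2613 to 2871 with overexpression, 5532 to 5717 with the scrambled hairpin and 8048 to 8734 with the Foxp1 hairpin. Of the markers of precursor cells, 5 of 8 were tested; 3 rose and 2 fell in overexpression and 1 rose and 2 fell in knockdown, and their sum lay between 104 and 153 RPKM in all libraries. The part of differentiation state in the changes of the 10 factors was not tested.

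**Figure D4:**
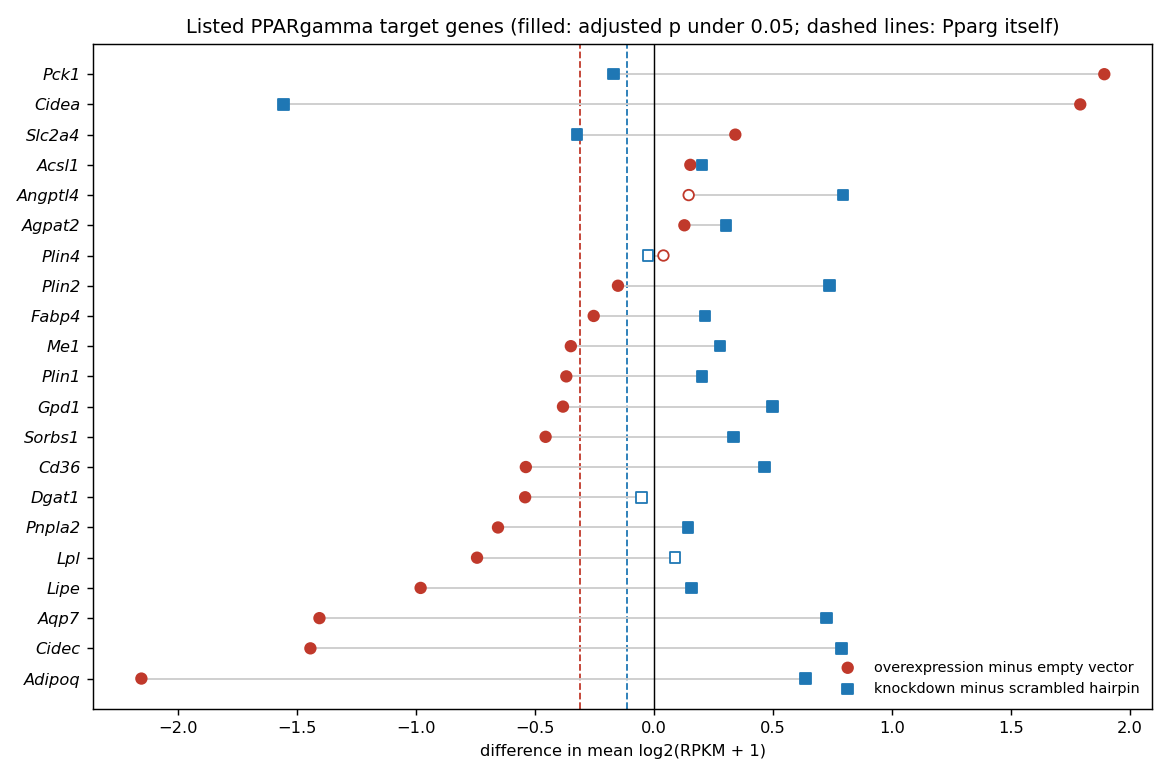
Difference in mean log2(RPKM + 1) (horizontal axis) of the 21 listed PPARγ target genes for overexpression minus empty vector (red circles) and Foxp1 hairpin minus scrambled hairpin (blue squares); filled symbols passed adjusted p 0.05 and the dashed lines mark Pparg itself at -0.31 and -0.11. Most circles lie left of 0 and most squares right of it, with 12 genes called lower in overexpression and higher in knockdown.

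PPARγ works as a pair with RXR and with coactivators and corepressors. Of all genes tested, 31.0% rose and 20.3% fell in overexpression, and 18.7% rose and 31.0% fell in knockdown. The counts of this list and of those below were not tested against these shares. Of 21 tested partners and coregulators, 7 rose and 6 fell in overexpression (median 0.02; 3 rose and 7 fell after rescaling to TPM), and 1 rose and 9 fell in knockdown (median -0.10; 2 and 5 under median-ratio scaling). The 7 that rose became 3 without empty vector replicate 2 or 3 or overexpression replicate 2. In knockdown the 9 that fell became 4 or 5 without scrambled replicate 1 or 2 or Foxp1 hairpin replicate 1 or 3, and the single rise was lost without scrambled replicate 1 or 3 or Foxp1 hairpin replicate 1 or 2. Rxra, the main RXR gene of fat cells, went from 93 ± 2.66 to 70.5 ± 1.24 RPKM with overexpression (log2 change -0.40, limma adjusted p = 7.51e-06). Nrip1, the corepressor RIP140, went from 16.3 ± 0.477 to 8.11 ± 0.591 (-0.93, adjusted p = 1.04e-07). Ppargc1b, a coactivator of mitochondrial genes, rose from 3.12 ± 0.07 to 4.39 ± 0.267 RPKM (0.39, adjusted p = 6.52e-05), and in knockdown it fell from 5.61 ± 0.118 to 3.84 ± 0.351 (-0.45, adjusted p = 2.85e-05). Tle3, a corepressor that can act with PPARγ as a coactivator, fell from 13.5 ± 0.542 to 8.87 ± 0.33 RPKM in knockdown (-0.56, adjusted p = 1.94e-06), and Rxrb from 23 ± 0.807 to 17.4 ± 0.447 (-0.38, adjusted p = 4.4e-06). In overexpression Tle3 and Rxrb both rose (0.291 and 0.247, limma adjusted p = 0.000173 and 7.62e-05). Between the controls, Tle3 was 3.01 times as high with the scrambled hairpin as with the empty vector. Rxra fell in knockdown as well, from 93.7 ± 4.22 to 74.2 ± 2.83 (-0.33, adjusted p = 5.2e-05). All values are means ± SD over 3 libraries.

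Of the listed C/EBP targets 7 were tested, and 4 of these are also listed as PPARγ targets. In overexpression 4 of the 7 fell and 2 rose (median -0.25, all genes 20.3% and 31.0%). In knockdown 4 rose and 3 fell (median 0.22, all genes 18.7% and 31.0%). The 2 rises in overexpression became 1 after rescaling to TPM and when any empty vector library or overexpression replicate 1 or 2 was left out. Retn, which encodes the hormone resistin, fell from 344.3 ± 6.05 to 77.6 ± 4.88 RPKM in overexpression (SD, n = 3 each, log2 change -2.14, limma adjusted p = 4.21e-11). Retn also fell in knockdown, from 268 ± 10 to 227.6 ± 17.4 RPKM (-0.24, adjusted p = 0.00522). In knockdown Adipoq rose from 910.2 ± 34.3 to 1416 ± 64.1 RPKM (0.64, adjusted p = 1.04e-06) and Agpat2, an enzyme of triglyceride synthesis, from 451.8 ± 14.1 to 557.3 ± 20.2 (0.30, adjusted p = 0.000185). Slc2a4, the insulin-responsive glucose transporter GLUT4, went the other way, from 63.1 ± 1.21 to 50.3 ± 2.94 RPKM (-0.32, adjusted p = 7.14e-05). In overexpression Agpat2 and Slc2a4 both rose (0.128 and 0.342, adjusted p = 0.0332 and 3e-05).

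The listed targets of LXR went in both directions, whereas Nr1h3 fell in overexpression and rose in knockdown. Of 11 tested, 4 rose and 4 fell in overexpression (median 0.05, all genes 31.0% and 20.3%). In knockdown 5 rose and 3 fell (median -0.04, all genes 18.7% and 31.0%). The number that rose was 2 in overexpression after rescaling to TPM and without empty vector replicate 1 or overexpression replicate 2, and 3 in knockdown without scrambled replicate 1. Scd1, the stearoyl-CoA desaturase, fell from 5873 ± 208 to 2672 ± 31.5 RPKM in overexpression (SD, n = 3 each, log2 change -1.14, limma adjusted p = 4.63e-09). It rose from 3050 ± 129 to 3914 ± 208 RPKM in knockdown (0.36, adjusted p = 0.000191), a call lost with no filter on low values and turned to -0.10 by quantile normalization. Pltp, the phospholipid transfer protein, rose in both, from 19.6 ± 0.705 to 46.5 ± 2.95 RPKM in overexpression (1.21, adjusted p = 1.23e-09) and from 19.1 ± 0.784 to 25.8 ± 0.773 in knockdown (0.41, adjusted p = 3.13e-05). Mylip, a ligase that degrades the LDL receptor, fell from 15.8 ± 0.736 to 10.2 ± 0.404 in overexpression (-0.59, adjusted p = 2.62e-07), and Apoe rose from 5.43 ± 0.392 to 9.19 ± 1.14 in knockdown (0.66, adjusted p = 8.6e-05). Mylip also fell in knockdown (-0.264, adjusted p = 0.000386), while Apoe fell in overexpression (-0.469, adjusted p = 0.000897).

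Of 8 tested STAT5 targets, 4 rose and 2 fell in overexpression (median 0.11, all genes 31.0% and 20.3%). In knockdown 2 rose and 4 fell (median -0.15, all genes 18.7% and 31.0%), with 1 rise when any 1 Foxp1 hairpin library was left out. Pim1, a kinase gene induced by cytokines, rose from 4.33 ± 0.152 to 9.02 ± 0.482 RPKM in overexpression (SD, n = 3 each, log2 change 0.91, limma adjusted p = 3.56e-08) and fell from 6.6 ± 0.583 to 3.02 ± 0.0565 in knockdown (-0.92, adjusted p = 1.93e-07). Pdk4, the kinase that shuts pyruvate dehydrogenase, did likewise, from 21.7 ± 1.31 to 49.6 ± 3.92 RPKM (1.15, adjusted p = 1.38e-08) and from 17.9 ± 0.291 to 10 ± 0.685 (-0.78, adjusted p = 1.64e-06). Both genes passed in overexpression, where the STAT5 genes themselves did not. Socs2, a feedback inhibitor of growth hormone signalling, fell from 3.41 ± 0.0852 to 2.56 ± 0.0931 RPKM in overexpression (-0.31, adjusted p = 3.72e-05), and Ccnd1, which encodes cyclin D1, rose from 3.92 ± 0.207 to 11.3 ± 1.5 in knockdown (1.31, adjusted p = 2.01e-07). Socs2 also fell in knockdown (-0.208, adjusted p = 0.00105), and Ccnd1 also rose in overexpression (0.404, adjusted p = 0.00102).

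Upstream of STAT5, 3 of 8 tested receptors and kinases rose and 2 fell in overexpression (median 0.05, all genes 31.0% and 20.3%). In knockdown 1 rose and 2 fell (median -0.06, all genes 18.7% and 31.0%). In knockdown the 2 falls became 1 without any of the empty vector libraries, overexpression replicate 1, scrambled replicates 1 and 2 or Foxp1 hairpin replicates 1 and 3, and the rises became 2 without overexpression replicate 3. Ghr, the growth hormone receptor, fell from 36 ± 0.986 to 25.9 ± 0.569 RPKM in overexpression (SD, n = 3 each, log2 change -0.46, limma adjusted p = 4.55e-07) and rose from 16.4 ± 0.379 to 19.6 ± 0.637 in knockdown (0.25, adjusted p = 0.000139). Jak1 fell from 36.5 ± 1.33 to 24.4 ± 1.42 RPKM in overexpression (-0.56, adjusted p = 1.25e-06), and Jak2, the kinase bound to the growth hormone receptor, from 17.8 ± 0.829 to 11.8 ± 1.45 in knockdown (-0.56, adjusted p = 0.000196). Lifr, a cytokine receptor, rose from 2.82 ± 0.152 to 4.59 ± 0.188 in overexpression (0.55, adjusted p = 1.64e-06). Ptpn11, the phosphatase SHP2, passed in knockdown by a small margin (35.4 ± 1.93 to 32.3 ± 1.35 RPKM; -0.13, adjusted p = 0.049) and lost the call under 14 of 25 alternatives.

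**Figure D5:**
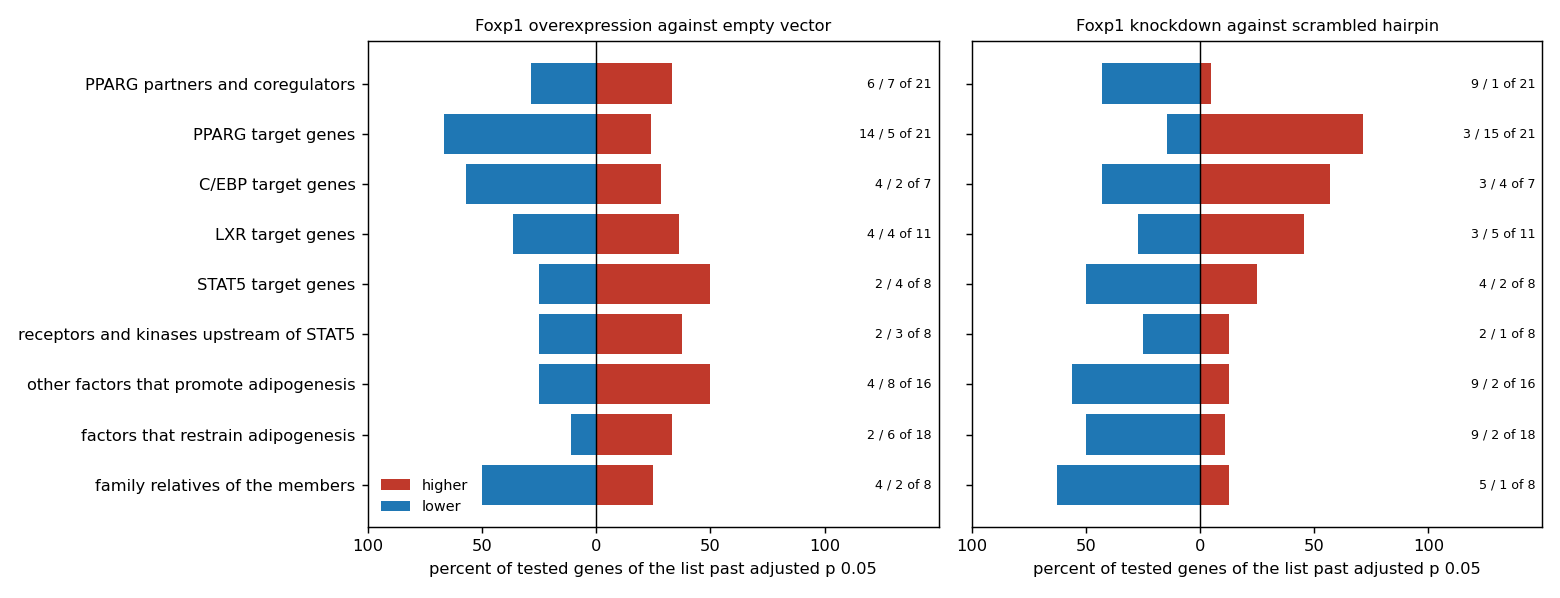
Percent of the tested genes of each list (horizontal axis, from 0 outwards) that passed adjusted p 0.05 as lower (blue, left) or higher (red, right) in overexpression and in knockdown; the text at the right of each row gives lower / higher of tested. Of the PPARγ targets, 14 of 21 were lower in overexpression and 15 of 21 higher in knockdown, while 9 of 16 other promoting factors and 9 of 18 restraining factors were lower in knockdown.

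Other regulators of adipogenesis either promote or restrain it. Across all genes tested, 31.0% rose and 20.3% fell in overexpression and 18.7% rose and 31.0% fell in knockdown, splits that depend on scaling and against which the counts of these lists were not tested. Of 16 factors that promote it, 8 rose and 4 fell in overexpression (median 0.15), and 2 rose and 9 fell in knockdown (median -0.19). The 4 falls became 2 without overexpression replicate 3 or empty vector replicate 2 or 3, and the 2 rises in knockdown became 1 without scrambled replicate 2 or Foxp1 hairpin replicate 1. Of 18 tested factors that restrain it, 6 rose and 2 fell in overexpression (median 0.05), and 2 rose and 9 fell in knockdown (median -0.14). After rescaling to TPM, 5 rose and 4 fell in overexpression. The 2 falls also became 4 without overexpression replicate 3, and 1 without empty vector replicate 1 or overexpression replicate 1 or 2. Among promoters, Klf4 and Egr2, early inducers of Cebpb, rose from 5.35 ± 0.14 to 8.79 ± 0.242 and from 0.531 ± 0.0318 to 1.64 ± 0.264 RPKM in overexpression (SD, n = 3 each, log2 change 0.63 and 0.78, limma adjusted p = 4.59e-07 and 1.75e-06). Zfp467 rose from 2.92 ± 0.252 to 5.44 ± 0.601 (0.71, adjusted p = 3.7e-06). Klf15, Bcl6 and Klf9 fell in knockdown, to 0.641, 0.678 and 0.774 times their controls (-0.61, -0.54 and -0.36, adjusted p = 1.26e-05, 1.7e-05 and 1.59e-05). In overexpression Klf15 and Klf9 also fell (-0.339 and -0.125, adjusted p = 0.000811 and 0.0198), while Bcl6 rose (0.287, adjusted p = 0.00148).

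Among restrainers, Foxo1, a forkhead factor held in check by insulin, rose from 10.8 ± 0.155 to 22.2 ± 0.883 RPKM in overexpression (SD, n = 3 each, log2 change 0.98, limma adjusted p = 1.16e-09) and fell from 18.1 ± 0.195 to 11 ± 0.524 in knockdown (-0.68, adjusted p = 1.67e-07). Wwtr1, which encodes the coactivator TAZ, rose from 19 ± 0.305 to 33.6 ± 2.28 in overexpression (0.79, adjusted p = 7.35e-08). Ddit3, the C/EBP relative CHOP that blocks C/EBP dimers from binding their sites, fell in both, from 105.3 ± 7.66 to 73.1 ± 5.07 RPKM in overexpression (-0.52, adjusted p = 2.04e-05) and from 121.2 ± 3.13 to 77.5 ± 4.45 in knockdown (-0.64, adjusted p = 7.31e-06). Tcf7l2, a mediator of Wnt signals, fell from 6.84 ± 0.49 to 4.26 ± 0.243 in knockdown (-0.57, adjusted p = 7.46e-05).

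Of 8 tested relatives from the same protein families, 2 rose and 4 fell in overexpression (median -0.11, all genes 31.0% and 20.3%). In knockdown 1 rose and 5 fell (median -0.28, all genes 18.7% and 31.0%). The rise was lost without scrambled replicate 2 or Foxp1 hairpin replicate 1 or 3. Ebf3 went against Ebf1 and Ebf2, rising from 2.18 ± 0.0872 to 5.72 ± 0.265 RPKM in overexpression (SD, n = 3 each, log2 change 1.08, limma adjusted p = 2.47e-09). It fell from 2.85 ± 0.104 to 1.79 ± 0.143 in knockdown (-0.46, adjusted p = 1.13e-05), where neither Ebf1 nor Ebf2 passed. For comparison, Ebf1 measured 5.42 ± 0.304 RPKM in overexpression. Cebpg, a C/EBP protein without an activation domain, fell from 33 ± 0.766 to 25.2 ± 0.615 in overexpression (-0.38, adjusted p = 2.16e-06), and Stat6 rose from 36.8 ± 0.475 to 44.2 ± 1.03 (0.26, adjusted p = 4.5e-05). In knockdown Ppard, which encodes PPARδ, fell from 37.6 ± 0.668 to 30.1 ± 0.555 (-0.31, adjusted p = 0.000155) and Stat3 from 31.9 ± 1.44 to 25.7 ± 1.03 (-0.30, adjusted p = 9.64e-05). Ppard and Stat3 also fell in overexpression (-0.26 and -0.153, adjusted p = 0.00048 and 0.00909).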

How the data were processed

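RNA of 12 libraries was measured by sequencing. The values are RPKM per gene, computed by the authors; the deposited numbers were RPKM divided by 1000, judged from the step between low values, and a factor of 1000 was applied. Per the submitters' processing notes, HISAT2 2.1.0, featureCounts and Subread 1.5.3 were used on mm10; settings are not given in the sources used here. Symbols, positions and exon lengths came from GENCODE M21 (GRCm38) for 28896 of 28948 identifiers. Multiplied by exon length, 98.83% to 98.93% of nonzero values per library fell within 0.05 of whole reads, which gave the depth.

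limma 3.58.1 (R 4.3.3) was run on log2(RPKM + 1) of genes reaching 1 RPKM in 3 or more libraries, as a model of 4 group means with a variance trend and Benjamini-Hochberg adjustment. The fit was also run on simulated reads with an assumed spread and far fewer changed genes than passed here. That run gives no error rate for these data. Shares of related genes were compared by exact permutation. Python 3.11.15 with scipy 1.17.1 made tables and figures. Alternatives were other pseudocounts, filters, scalings, variance models and thresholds, only the libraries compared, a replicate block, voom on recovered reads, and each library left out. Their use on list counts was chosen after seeing the data.

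The 10 factors and all lists were chosen with earlier results of these data known. Named by rule were all 10 factors, up to 3 genes per list and comparison with the smallest adjusted p, and the 3 genes nearest to Pparg and Cebpa.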

Additional observations from a re-analysis of the deposited data

How the results depend on the processing

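The signs and calls of the 10 factors held under the alternatives run in overexpression and for the difference of responses, except where a filter left a factor untested. Of the 40 factor comparisons, 4 had a changed call or sign: Pparg in knockdown, and Cebpa, Ebf1 and Cebpd between the controls. The number of factors called without 1 library at a time was 8 in overexpression, 7 to 8 in knockdown, 10 for the difference and 7 to 9 between the controls. With a mean of at least 5 RPKM, which leaves out Ebf2 and Klf5, it was 5 between the controls in place of 8. That filter tested 6660 genes and called 2169 higher and 1514 lower in overexpression (3490 and 2285 in the main analysis), 1370 and 2160 in knockdown (2100 and 3487), 2351 and 1484 for the difference (3888 and 2285) and 3123 and 1851 between the controls (5037 and 3033). Between the controls Cebpd, which did not pass, turned sign with TPM rescaling (0.069) and without empty vector replicate 3 (0.01) or scrambled hairpin replicate 1 (0.007; range -0.028 to 0.01 over single libraries left out), and Ebf1 with median-ratio scaling (-0.004). Scd1 in knockdown turned to -0.095 with quantile normalization. The difference in the share of Stat5a ranged from -0.718 to 0.558 points in overexpression and from -0.764 to 0.392 in knockdown when 1 library was left out, and turned sign 2 and 3 times. The Ebf1 share difference in knockdown was 1.17 points when shares were of reads and not of RPKM (1.53). Of 54 named list gene comparisons, 2 changed their call under some alternative, Ptpn11 and Scd1 in knockdown.

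Deviations from the group mean correlated at -0.013, 0.118 and 0.081 between same-numbered empty vector and overexpression libraries. Between the hairpin groups they correlated at -0.073, 0.049 and -0.059. With 3 libraries per group, these values cannot tell whether same-numbered libraries shared a culture or batch. With the replicate block, 8, 8 and 10 factors were called in overexpression, in knockdown and for the difference, and 7 between the controls, where Ebf1 did not pass (adjusted p = 0.0531). By these correlations, no same-numbered hairpin pair was the best match. Scrambled replicates 1, 2 and 3 correlated best with Foxp1 hairpin replicates 2, 3 and 1 (0.154, 0.157 and 0.237). Empty vector replicates 2 and 3 matched best with the overexpression library of the same number, and replicate 1 did not. Depth limits Ebf2 (88 to 385 reads per library) most.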
